A study of Mus musculus with 7 samples.

Results

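The miR-15/16 family was followed through small RNA libraries of the mouse brain ventricles. The members were taken by name, with earlier results of these data known. They are the 5p arms mmu-miR-15a-5p, mmu-miR-15b-5p, mmu-miR-16-5p, mmu-miR-195a-5p, mmu-miR-322-5p, mmu-miR-497a-5p and mmu-miR-503-5p, and the opposite arm of the miR-322 hairpin, mmu-miR-322-3p. These are 8 of the 1914 mouse miRNA rows in the deposited tables.

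A miRNA hairpin is cut into a 5p and a 3p arm, and the arm loaded into Argonaute pairs with messenger RNAs mainly through its seed, bases 2 to 8. miRNAs with one seed can therefore share many targets. The miR-15/16 family is known for restraining the cell cycle and survival, with cyclin and BCL2 transcripts among its targets. In humans the miR-15a and miR-16-1 locus is often deleted in chronic lymphocytic leukaemia. In the mouse heart miR-195 has been linked to the cell cycle exit of cardiomyocytes after birth.

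The 7 libraries came from lateral ventricles with choroid plexus of adult C57BL/6J mice, 4 from animals labelled TAp73 Knock-out (KO libraries) and 3 from Wild-type animals (WT libraries). TAp73 is the form of p73, encoded by Trp73, that carries the transactivation domain. By its title the series concerns how brain cells form multiple cilia. The labels used here name neither the construction of the allele nor whether each library is 1 animal. The tests therefore weigh differences against library to library spread, which may be technical in part. Trp73 is not a small RNA and could not be checked.

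Assigned reads ran from 969106 to 9343921 in knockout libraries and from 2238917 to 3692879 in wild type libraries. Knockout replicate 3 was the shallowest, and 3 reads there stand for 3.14 CPM, counts per 1000000 mouse miRNA reads, against 0.325 CPM in knockout replicate 1. The choroid plexus marker miR-204-5p was present in each library but varied widely, and its list of 4 arms summed to 2016 to 7435 CPM in KO libraries, against 2015 to 11790 CPM in WT libraries, with miR-211-3p at 0. The lowest sums belonged to knockout replicate 3 and wild type replicate 2. The sum was almost wholly miR-204-5p, and the other arms with reads were not ordered in the same way. miR-211-5p was highest in knockout replicate 3, at 7.33 CPM from 7 reads, and miR-204-3p was lowest in knockout replicate 4, at 1.29 CPM. The tissue was not sorted, so fewer cells of a type and less of a miRNA per cell cannot be told apart.

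The mature sequences of the family from RefSeq (GRCm38.p6) are shown because they define which members can share targets. They run 5′ to 3′, and the capitals mark the seed.
miR-16-5p: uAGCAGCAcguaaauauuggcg
miR-195a-5p: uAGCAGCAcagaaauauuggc
miR-15a-5p: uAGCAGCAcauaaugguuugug
miR-15b-5p: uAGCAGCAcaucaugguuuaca
miR-497a-5p: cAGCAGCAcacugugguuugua
miR-322-5p: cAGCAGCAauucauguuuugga
miR-503-5p: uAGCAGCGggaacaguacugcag
miR-322-3p: aAACAUGAagcgcugcaacac

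All 8 members matched the RefSeq table, with lengths of 21 to 23 bases. Of the 7 5p arms, 6 carried the seed AGCAGCA, which pairs with UGCUGCU in a transcript. miR-503-5p departed from it by 1 base, A8G relative to miR-16-5p, counted from the 5′ end. miR-322-3p has an unrelated seed and counts as a member only through its hairpin. Beyond the seed the arms diverged. Aligned from the 5′ end without gaps, miR-16-5p and miR-195a-5p were identical at 19 of 21 bases (90.5%), and miR-15a-5p and miR-15b-5p at 18 of 22 (81.8%). miR-16-5p and miR-497a-5p shared 11 of 22 (50.0%), of which 4 lay after base 8.

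The seed AGCAGCA occurs in 10 mature mouse miRNAs of the table. The 4 that are not members, miR-195b, miR-6342, miR-6353 and miR-6419, were listed with 0 reads in each of the 7 libraries. A row at 0 is not proof of absence in these tables. miR-126a-5p was also listed at 0, although its partner arm miR-126a-3p had 28839 reads.

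The members come from 4 loci (GRCm38, GENCODE release M21). Mir15a (chromosome 14, 61632027 to 61632110, minus strand) and Mir16-1 (61631880 to 61631972) lie 54 bases apart in the long non-coding gene Dleu2, on its strand. Mir15a is intronic in each of the 8 Dleu2 transcripts that span it, and Mir16-1 overlaps an exon of 1 of 9. Mir15b (chromosome 3, 69009772 to 69009835, plus strand) and Mir16-2 (69009902 to 69009996) lie in an intron of Smc4, which encodes a condensin subunit. Both hairpins of miR-16 give the same 5p arm, so its row pools the loci on chromosomes 14 and 3.

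Mir497 (chromosome 11, 70234717 to 70234800, plus strand) lies 241 bases from Mir195a (70235042 to 70235135). Neither overlaps an annotated gene, where genes with names that begin with Mir were not searched. Among those, the antisense hairpin Mir497b overlaps, and its row held 1 read. Mir322 (chromosome X, 53054255 to 53054349, minus strand) and Mir503 (53053984 to 53054054) lie 200 bases apart. They open a cluster that continues with Mir351, Mir542 and the miR-450 hairpins over 6353 bases. The human counterpart of miR-322 is called miR-424.

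The levels of the members spanned several orders of magnitude, with miR-16-5p far above the rest. It averaged 6646 CPM over the 7 libraries and was the mouse miRNA of rank 27. miR-15a-5p, next in order, averaged 256 CPM, 26.0-fold less. It was followed by miR-195a-5p at 181 CPM, miR-497a-5p at 143.8 CPM, miR-322-5p at 78.1 CPM, miR-322-3p at 35.6 CPM and miR-15b-5p at 24.3 CPM. miR-503-5p closed the order at 0.483 CPM. Each member was above the next in 7 of 7 libraries, but the ranges over libraries overlapped for miR-15a-5p and miR-195a-5p and for miR-195a-5p and miR-497a-5p. Reads were compared as counted. The mature lengths differ little, but adapter ligation in small RNA libraries depends on sequence, so an order of reads need not be an order of molecules.

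None of the 7 tested members passed the test between genotypes. In edgeR's quasi-likelihood test with Benjamini-Hochberg adjustment over all 534 mouse miRNAs tested, 0 of 7 were called at an adjusted p under 0.05 (smallest adjusted p = 0.38), against 1.12% of all tested miRNAs. DESeq2 and limma-voom called 0 as well. At an unadjusted p under 0.05 there was 1 member by edgeR, miR-195a-5p, against 12.9% of all tested miRNAs. DESeq2 gave 1 such member, and limma-voom gave 2, miR-195a-5p and miR-497a-5p. In 0 of the 7 did the genotypes fail to overlap, against 11.8% of all tested miRNAs. The log2 fold changes of the members had a median of 0.12, with 4 positive and 3 negative, beside -0.02 for all tested. miR-503-5p did not pass the filter on low counts and was not tested.

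**Figure D1:**
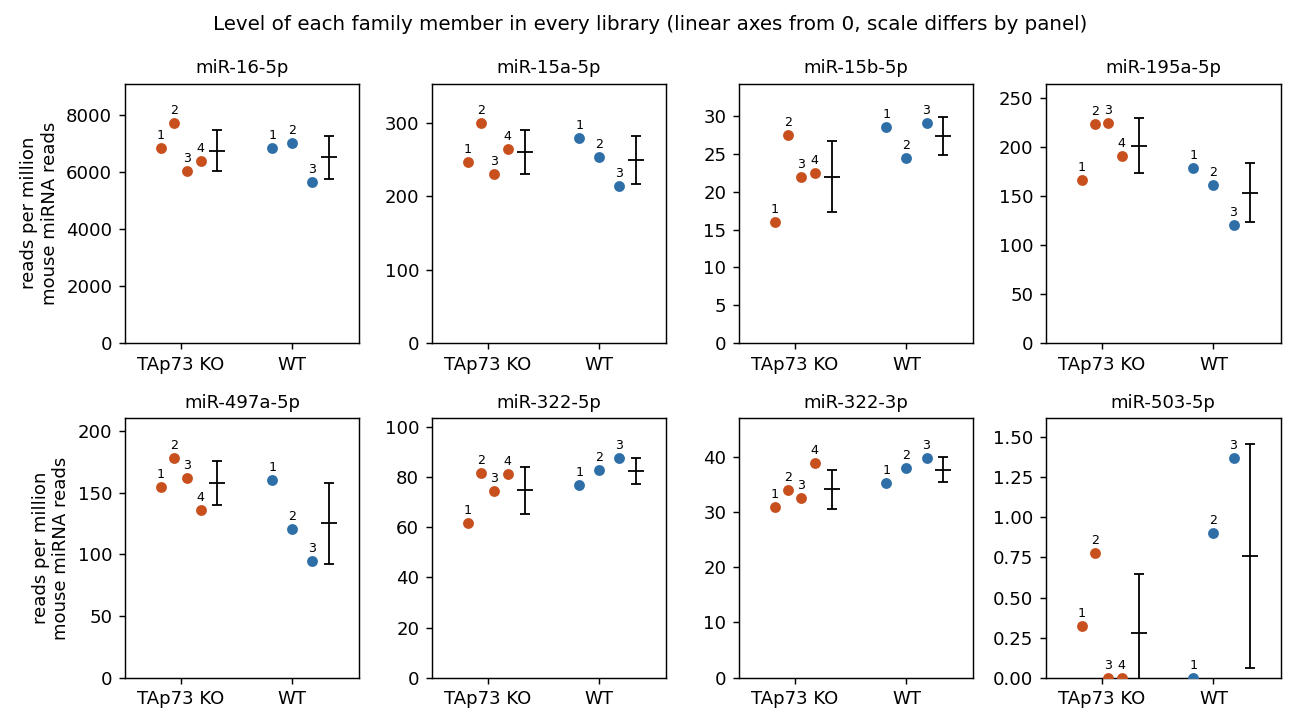
Level of each family member in CPM (reads per 1000000 mouse miRNA reads), with 1 point per library, numbered by replicate, and the mean ± SD beside it (4 TAp73 KO, 3 WT). The genotypes overlap in each panel, and for miR-195a-5p 3 of 4 knockout libraries lie above all wild type libraries. The lower error bar of miR-503-5p in KO libraries is cut at 0.

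miR-16-5p, the member that carries most of the family's reads, stood at 6848, 7712, 6027 and 6395 CPM in knockout replicates 1 to 4, against 6855, 7033 and 5652 CPM in wild type replicates 1 to 3. The ranges of the groups overlapped, with knockout replicate 2 the highest library and wild type replicate 3 the lowest. The means were 6746 ± 727 CPM in KO libraries (SD, n = 4), against 6513 ± 751 CPM in WT libraries (SD, n = 3). The fitted fold was 1.09 with a 95% interval of 0.8845 to 1.34 (log2 fold change 0.12 ± 0.14, SE, edgeR adjusted p = 0.73). The log2 fold change was 0.0067 without wild type replicate 3 and 0.26 without knockout replicate 3 and wild type replicate 2 together.

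miR-15a-5p shares the Dleu2 transcript with miR-16-1. It was at 247, 299.9, 230.4 and 264 CPM in knockout replicates 1 to 4, against 280.2, 254 and 214 CPM in WT libraries. Knockout replicate 2 was again the highest library and wild type replicate 3 the lowest. Its log2 fold change was 0.14 ± 0.16 (edgeR adjusted p = 0.73). Leaving out 1 library gave 0.015 (wild type replicate 3 out), 0.054 (knockout replicate 2 out) and 0.23 (wild type replicate 1 out).

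miR-15b-5p, from the Smc4 intron, pointed the other way. It was at 16.03, 27.5, 22.0 and 22.4 CPM in KO libraries, against 28.5, 24.4 and 29.1 CPM in WT libraries. Of the knockout libraries 3 lay below all wild type libraries, and knockout replicate 2 lay among them. The log2 fold change was -0.24 ± 0.22 (edgeR adjusted p = 0.67), with an interval on the fold of 0.605 to 1.182. It was -0.10 without knockout replicate 1 and -0.40 without knockout replicate 2. The counts behind it were modest, from 21 reads in knockout replicate 3 to 212 in knockout replicate 2.

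The chromosome 11 pair showed the largest fitted differences in the family, both positive, and neither was called. miR-195a-5p was at 166, 223.2, 224 and 191 CPM in KO libraries, against 178, 161 and 120.4 CPM in WT libraries. Knockout replicate 1 was the only knockout library below a wild type one. The means were 201 ± 28.1 CPM in KO libraries (SD, n = 4), against 153.4 ± 29.8 CPM in WT libraries (SD, n = 3), and the fitted fold was 1.37 (95% interval 1.03 to 1.84). In edgeR this gave a log2 fold change of 0.46 ± 0.19 (SE), an unadjusted p of 0.036 and an adjusted p of 0.38.

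miR-497a-5p, cut from the hairpin next to it, was at 154.98, 178, 162 and 136 CPM in KO libraries. In wild types it was at 160.1, 121 and 94.6 CPM. Wild type replicate 1 lay inside the knockout range and the other two lay below it. The fitted fold was 1.33 with an interval of 0.968 to 1.81 (log2 fold change 0.41 ± 0.21, edgeR adjusted p = 0.42).

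Both values of this pair leaned on wild type replicate 3, the lowest library for each. Without it the log2 fold changes were 0.28 for miR-195a-5p (edgeR adjusted p = 0.53) and 0.21 for miR-497a-5p (0.66). Without wild type replicate 1 they were 0.58 (0.29) and 0.63 (0.27). Beside this, wild type replicate 3 had the lowest summed level of the 8 neuronal markers, at 23400 CPM, and the highest summed level of the choroid plexus markers. The neuronal sum ran from 37520 to 42330 CPM in KO libraries and from 23400 to 38790 CPM in WT libraries, with 0 of 8 markers at 0. The largest differences in mean were those of miR-128-3p, at 18580 ± 687 CPM in KO libraries (SD, n = 4), against 12040 ± 4112 CPM in WT libraries (SD, n = 3), and of miR-132-3p, at 4560 ± 439.8 CPM in KO libraries, against 3375 ± 750.2 CPM in WT libraries. Of the 8 log2 fold changes 5 were positive and 3 negative, with a median of 0.02, and the smallest edgeR adjusted p was 0.15. The part of these cell types in the values of miR-195a-5p and miR-497a-5p was not tested.

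The X-linked members did not pass either. miR-322-5p was at 61.7, 81.6, 74.3 and 81.4 CPM in KO libraries, against 77.1, 82.7 and 87.7 CPM in WT libraries. Knockout replicate 1 was the lowest library and wild type replicate 3 the highest. The log2 fold change was -0.07 ± 0.17 (edgeR adjusted p = 0.87), and it was 0.01 without knockout replicate 1. miR-322-3p was at 30.9, 34.04, 32.5 and 38.9 CPM in KO libraries, against 35.2, 38.0 and 39.8 CPM in WT libraries. Here 3 knockout libraries lay below all wild types, and knockout replicate 4 lay among them. Its log2 fold change was -0.06 ± 0.17, with an interval on the fold of 0.743 to 1.23.

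miR-503-5p, the arm with the altered seed, was close to the limit of detection. It had 3, 6, 0 and 0 reads in knockout replicates 1 to 4 and 0, 2 and 5 reads in WT libraries. The 0 counts allow up to 3.14 CPM in knockout replicate 3, 0.773 CPM in knockout replicate 4 and 1.11 CPM in wild type replicate 1, for counting error only. With no filter on low counts it entered the edgeR test and was not called, and 16 reads in all allow no narrow estimate of a difference.

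**Figure D2:**
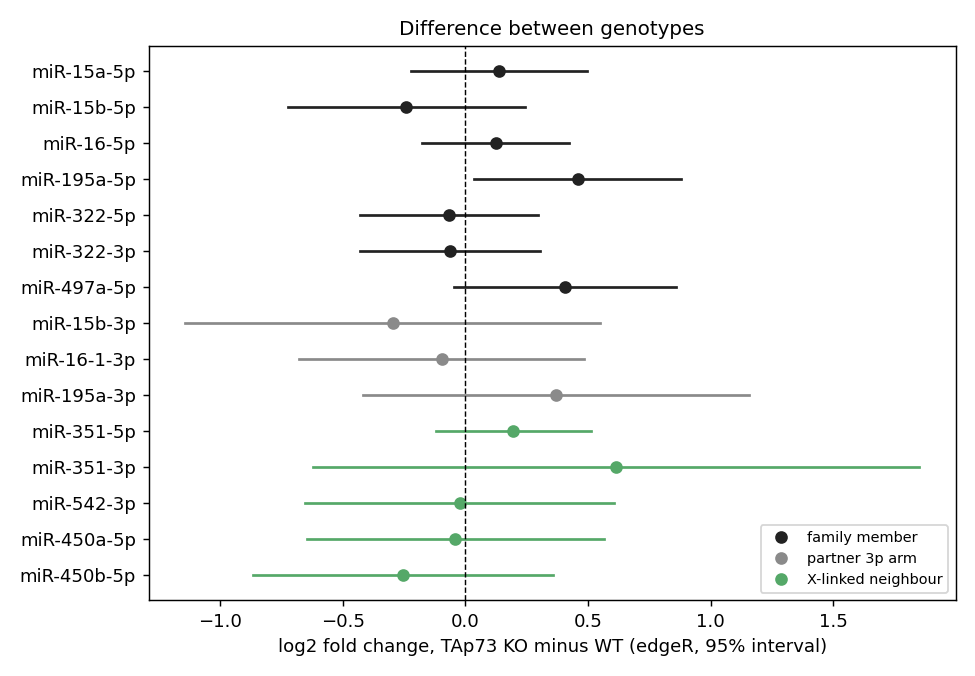
Log2 fold change of each tested family member, partner 3p arm and X-linked neighbour, TAp73 KO minus WT, from edgeR (points) with 95% intervals (lines). The interval of miR-195a-5p, from 0.04 to 0.88, is the only one above 0, and it does not pass after adjustment over the 534 miRNAs.

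Summed over the 7 5p arms, the family took 0.749%, 0.852%, 0.674% and 0.709% of mouse miRNA reads in knockout replicates 1 to 4, against 0.758%, 0.768% and 0.620% in WT libraries. The groups overlapped, with means of 7462 ± 772 CPM in KO libraries (SD, n = 4), against 7152 ± 826 CPM in WT libraries (SD, n = 3). The mean log2 difference of 0.06, in CPM without TMM scaling, was smaller than the pooled SD of 0.16 between libraries of one genotype. With the TMM scaling used in the test of single members, the difference was 0.14. Without TMM scaling it was -0.04 with wild type replicate 3 left out and -0.0035 with knockout replicate 2 left out.

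Within the family, miR-16-5p made up 90.4% ± 0.811 of the reads in KO libraries (SD, n = 4), against 91.1% ± 0.59 in WT libraries (SD, n = 3). miR-15a-5p held 3.49% ± 0.185 in KO libraries, against 3.49% ± 0.198 in WT libraries. miR-195a-5p held 2.71% ± 0.46 in KO libraries, against 2.13% ± 0.207 in WT libraries. miR-497a-5p held 2.12% ± 0.207 in KO libraries, against 1.74% ± 0.326 in WT libraries. These shares overlapped between genotypes, with miR-195a-5p at 2.21% in knockout replicate 1 and at 2.35% in wild type replicate 1.

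The least abundant arms also overlapped. miR-322-5p held 1.01% ± 0.148 in KO libraries, against 1.17% ± 0.214 in WT libraries. miR-15b-5p held 0.295% ± 0.0542 in KO libraries, against 0.388% ± 0.076 in WT libraries. No p is given for sums and shares, which are scores over chosen members. The p of a single member comes from the test over all 534 miRNAs.

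**Figure D3:**
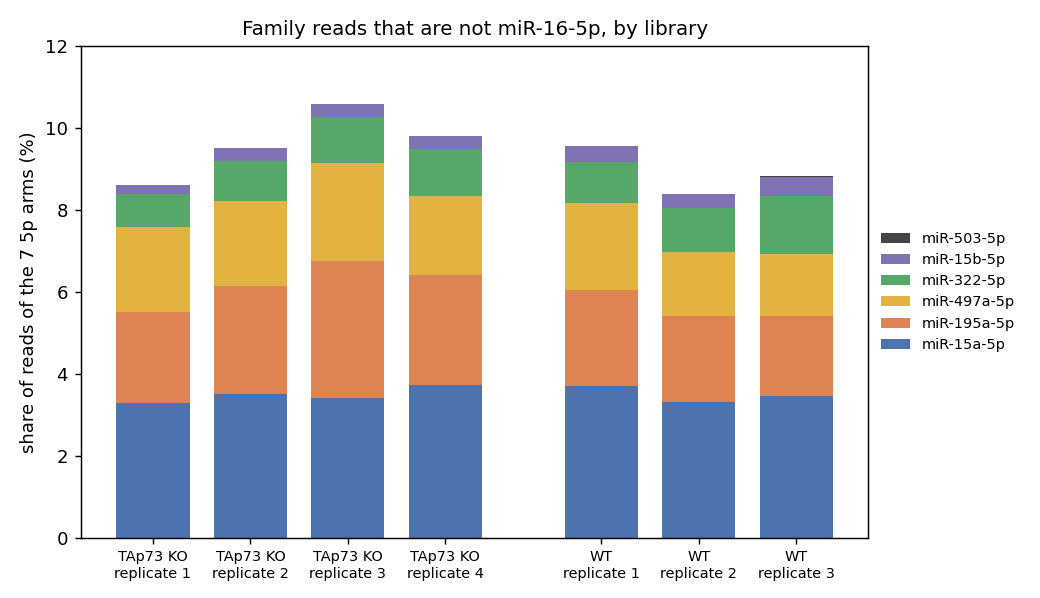
Share of the reads of the 7 5p arms that did not belong to miR-16-5p, in percent, stacked by member with 1 bar per library (4 TAp73 KO left, 3 WT right). miR-15a-5p takes a near constant 3.29% to 3.73%, while the miR-195a-5p segment ranges from 1.94% in wild type replicate 3 to 3.33% in knockout replicate 3.

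Ratios between members do not depend on how libraries are scaled. Between the neighbours miR-195a-5p and miR-497a-5p the ratio was 1.07, 1.25, 1.38 and 1.404 in KO libraries, against 1.11, 1.34 and 1.27 in WT libraries. The groups overlapped, and the log2 difference of 0.04 was smaller than the pooled SD of 0.16. For the arms of miR-322 the ratio of 5p to 3p was 2.195 ± 0.181 in KO libraries (SD, n = 4), against 2.19 ± 0.0143 in WT libraries (SD, n = 3).

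The ratio of miR-15a-5p to miR-15b-5p, 2 closely related arms from different loci, was 15.4, 10.9, 10.5 and 11.8 in KO libraries. In wild types it was 9.82, 10.4 and 7.38. The knockout libraries lay above the wild types, but by a small margin. The closest pair were knockout replicate 3 at 10.48, with a 95% counting interval (Wilson) of 6.72 to 16.3 from 21 reads of miR-15b-5p, and wild type replicate 2 at 10.39, with 7.87 to 13.7. The mean log2 difference was 0.40 with a pooled SD of 0.26. It was 0.28 without knockout replicate 1 and 0.25 without wild type replicate 3. For comparison, the levels of 11.8% of all tested miRNAs did not overlap between the genotypes. That share is for single miRNAs, and none was computed for ratios.

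**Figure D4:**
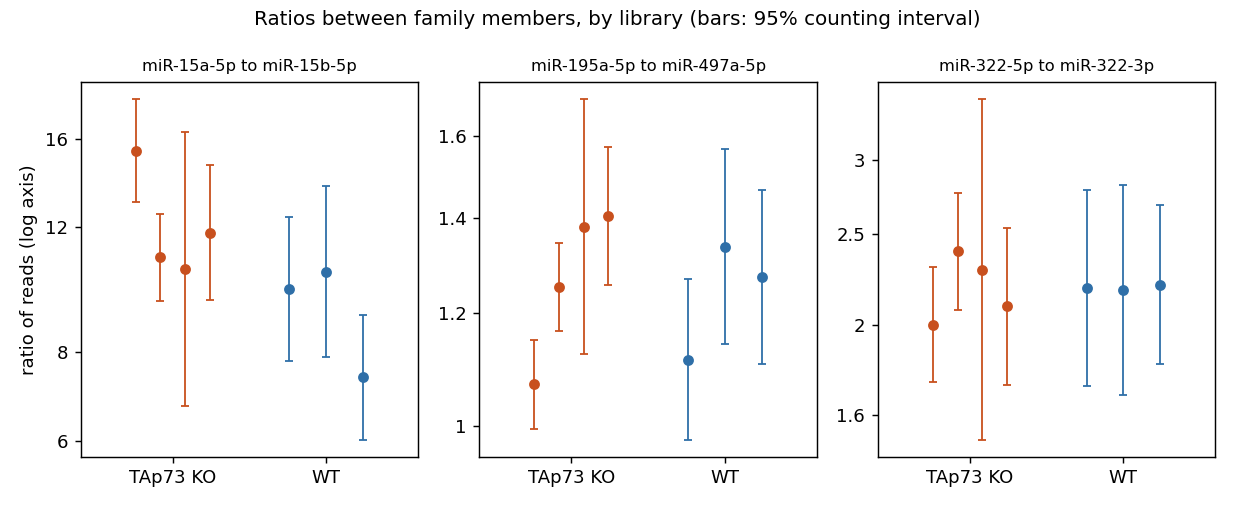
Ratio of reads between 3 pairs of family arms in each library on a log axis, 4 TAp73 KO left and 3 WT right in each panel, in order of replicate. Bars are 95% Wilson counting intervals and hold no spread between libraries. The miR-15a-5p to miR-15b-5p ratio separates the genotypes by the gap between 10.48 and 10.39, and the other pairs overlap.

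Reads were split unevenly between the arms of most hairpins of the family. Over the 7 libraries Mir15a gave 7931 reads of the 5p and 63 of the 3p arm, so that 99.2% were 5p. The 5p share was 99.4% for Mir497, 92.1% for Mir195a and 89.6% for Mir15b. Mir322 was the most balanced of the well covered hairpins at 68.6%, with 2296 and 1053 reads and a range of 66.7% to 70.6% over libraries. Mir503 was the exception among the family hairpins, with more reads of the 3p arm (55) than of the 5p arm (16). As with the order of members, a share of reads need not be a share of molecules. Counting may also matter, as miR-126a-5p was at 0 beside 28839 reads of its partner arm.

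Of the 7 partner 3p arms, 3 had enough reads to be tested and 0 were called by edgeR, with 0 at an unadjusted p under 0.05. limma-voom and DESeq2 called 0 as well, and DESeq2 gave 2 of them no adjusted p. Their log2 fold changes ran from -0.30 to 0.37, with a median of -0.10. The best covered were miR-195a-3p, at 13.4 ± 7.1 CPM in KO libraries (SD, n = 4), against 12.2 ± 1.66 CPM in WT libraries (SD, n = 3; log2 fold change 0.37 ± 0.36), and miR-16-1-3p, at 5.49 ± 0.929 CPM in KO libraries, against 6.50 ± 0.587 CPM in WT libraries (-0.10 ± 0.26). miR-497a-3p, which was not tested, averaged 1.02 ± 0.171 CPM in KO libraries (SD, n = 4), against 0.306 ± 0.28 CPM in WT libraries (SD, n = 3). These levels rest on 23 reads in KO libraries and 3 reads in WT libraries. Knockout replicates 1 and 2, the deepest of the 7 libraries, gave 10 and 9 of the 23.

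The 3p arms of miR-16 differ between its hairpins and so keep the loci apart. Mir16-1 on chromosome 14 gave 185 of the 222 reads, or 83.3% (Wilson 95% interval 77.9 to 87.7). The share was 81.65% in KO libraries (158 reads) and 87.5% in WT libraries (64 reads), with overlapping intervals of 74.9 to 86.9 and 77.2 to 93.5. These reads are few beside 207825 reads of miR-16-5p, and a 3p arm need not be kept at the same rate from both hairpins.

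The X-linked neighbours of miR-322 gave a similar picture to the family members in the cluster. Of the 9 arms of miR-351, miR-542 and miR-450, 5 were tested and 0 were called by edgeR, with 0 at an unadjusted p under 0.05. limma-voom and DESeq2 called 0 as well, and DESeq2 gave 2 of them no adjusted p. The log2 fold changes had a median of -0.02, with 2 positive and 3 negative. miR-351-5p was the most abundant miRNA of this cluster, at 286, 298, 324 and 310 CPM in KO libraries, against 243, 265 and 335 CPM in WT libraries. It thus stood above miR-322-5p in each library (log2 fold change 0.20 ± 0.14, edgeR adjusted p = 0.59). miR-450a-5p averaged 12.9 ± 3.85 CPM in KO libraries (SD, n = 4), against 14.4 ± 3.22 CPM in WT libraries (SD, n = 3).

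Among 398 other tested miRNAs with a mean above 10 CPM and reads in each library, the pattern over the 7 libraries closest to that of miR-16-5p belonged to miR-30d-3p. The root mean square difference of its centred log2 levels was 0.051, where miR-16-5p itself varied by 0.138 and the median candidate differed by 0.306. miR-22-3p (0.0858) and miR-592-5p (0.088) followed. For miR-322-5p the closest were miR-379-3p (0.10), miR-181c-3p (0.102) and miR-127-5p (0.113), where miR-322-5p itself varied by 0.153. These are descriptions of 7 libraries.

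Levels of other cell types are given for comparison, since the family is broadly expressed. The erythrocyte list (miR-451a, both arms of miR-144, and a joined miR-486a/b 5p row, 0 of 4 at 0) summed to 3764 to 5217 CPM in KO libraries, against 3859 to 4196 CPM in WT libraries. The vessel wall list summed to 16370 to 21320 CPM in KO libraries, against 16840 to 25410 CPM in WT libraries, with 1 of its 5 arms, miR-126a-5p, at 0. The 5 leukocyte arms summed to 590.4 to 790.5 CPM in KO libraries, against 535 to 599 CPM in WT libraries. The erythrocyte sum was mostly the miR-486 row, with a mean of 4009 CPM, against 119.5 CPM for miR-451a. Of the erythrocyte log2 fold changes 4 were positive and 0 negative (median 0.36), and of the leukocyte ones 5 and 0 (0.35). The vessel wall list had 2 and 2, the oligodendrocyte list 1 and 2, and the muscle list 0 and 2. In these lists edgeR called 0. The oligodendrocyte list of 4 arms stood at 598 to 833.1 CPM in KO libraries, against 603 to 997 CPM in WT libraries, with miR-219a-5p at 0, and the 6 muscle arms at 6.96 to 9.42 CPM in KO libraries, against 11.8 to 12.97 CPM in WT libraries, with miR-133b-3p at 0. The multiciliated list of 7 arms of miR-449 and miR-34b/c, with miR-449b at 0, stood at 385 to 761 CPM in KO libraries, against 1291 to 3675 CPM in WT libraries. It held the 6 miRNAs that edgeR called, 2 arms of miR-449 higher and 4 arms of miR-34b/c lower in KO libraries. The part of any of these cell types in the family's values was not tested.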

How the data were processed

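The authors deposited 1 table per library, which holds unnormalized read counts for each small RNA name. Per the labels' protocols, total RNA from a phenol and chloroform extraction went into TruSeq small RNA libraries. Named without roles in the submitters' processing notes are mm10, DESeq2 and bcl2fastq 2.17.1.14. The aligner and counting tool were not given in the sources used here, nor was how reads of similar arms were assigned, which matters most for miR-16-5p and miR-195a-5p. The 12 rows of other species that carry a member's name held 0 reads.

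Levels are counts per 1000000 mouse miRNA reads (CPM). The test over the mouse rows used edgeR 4.0.16 (R 4.3.3), TMM scaling, filterByExpr (minimum count 10, total 15), robust quasi-likelihood tests and Benjamini-Hochberg adjustment, after the procedure was tested on simulated data. DESeq2 1.42.0 and limma 3.58.1 were alternatives. The chi-square per degree of freedom between any 2 libraries was at least 46.6, so none was counted as the same library sequenced again. It cannot tell whether 2 libraries came from 1 animal. Reads carry no molecular identifiers, so counting intervals and limits (3 reads for a count of 0) cover counting error only.

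Named are all members, the 2 best covered partner arms and neighbours, the other miRNAs with the seed, and the 3 closest patterns to miR-16-5p and miR-322-5p. miR-497a-3p was named after its values were seen. Members and lists were chosen with earlier results of these data known. The planned ratio of miR-322-5p to miR-503-5p was not computed because 3 libraries held 0 reads of miR-503-5p.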

Additional observations from a re-analysis of the deposited data

Results flagged for a closer look

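Of 26 sets of 4 knockout values examined (levels of tested arms, shares, ratios and the family sum), 1 held a library far from the others. miR-15b-5p made up 0.214% of the family's reads in knockout replicate 1, from 148 reads, and 0.316% to 0.326% in knockout replicates 2 to 4. The gap to the nearest library was 0.911 of the whole spread in that group. In wild types the share was 0.318% to 0.469%. Chance marks about 1 in 20 such sets.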

How the results depend on the processing

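The count of 0 called members held under all 15 alternatives: DESeq2, limma-voom, library totals or RLE in place of TMM, no filter, a filter of 10 CPM in 3 libraries, rows of all species summed, each library left out in turn, and knockout replicate 3 with wild type replicate 2 left out together. The smallest adjusted p of a member in any of them was 0.27, for miR-497a-5p without wild type replicate 1. The log2 difference of the family sum was 0.06, with a pooled SD of 0.16 between libraries. It was 0.14 with TMM scaling and 0.17 without miR-16-5p in the sum. It was 0.16 without knockout replicate 3 and wild type replicate 2 together, so each of these settings moved it by less than that SD. For sums, shares and ratios, leaving out 1 library of groups this small cannot move the difference by as much as the pooled SD. That comparison therefore decides nothing, though differences near 0 did change sign. Shares and ratios were recomputed only with rows of all species summed and with each library left out in turn. Summing rows of all species could not change them, since the added rows of members held 0 reads. In edgeR, 0 members had an unadjusted p under 0.05 with library totals or without knockout replicate 2, 3 or 4. The count was also 0 without wild type replicate 3, and without knockout replicate 3 and wild type replicate 2 together. The other alternatives gave 1 or 2 members. Among log2 fold changes, directions turned for 3 arms near 0. miR-322-5p ranged from -0.13 to 0.014 with 1 library left out, miR-542-3p from -0.17 to 0.078 and miR-450a-5p from -0.22 to 0.10. With no filter miR-542-3p was at 0.018 and miR-450a-5p at 0.0011, and miR-450a-5p was at 0.11 without the 2 libraries together. The cause was not tested. The number called among all miRNAs was 6 in the main test, 14 with DESeq2 (94 with no adjusted p) and 19 with no filter or without the 2 libraries. Over single libraries left out it ran from 3, with wild type replicate 1 out, to 14, with wild type replicate 2 out. No paired analysis was possible because replicate numbers here only follow the order of the libraries, and the labels tie no KO library to a WT library by litter, batch or day. Depth limits miR-503-5p and 4 of the 7 partner arms.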

Other observations

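One row outside the mouse miRNA set has a name close to that of a member. It belongs to 70 rows of predicted miRNAs that are numbered in their own series, and the row numbered 16 held 263 reads over the 7 libraries. The files pair it with no sequence, and it was not counted with miR-16-5p.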
